A study of Mus musculus with 18 samples.

Results

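The ubiquitin-conjugating enzymes, or E2 enzymes, carry activated ubiquitin, or a ubiquitin-like protein, to a substrate, and their genes are those examined here in NIH-3T3 mouse fibroblasts treated with the proteasome inhibitor carfilzomib (CFZ). Members were the rows of the raw count table whose symbol begins with Ube2 and whose counts over all 18 libraries summed to at least 180. This gave 31 of 23420 rows. The table held 37 such symbols, of which 5 fell below the minimum and 1 further symbol was left out by the rule. Among the 5, Ube2ql1, Ube2d2b, Ube2dnl1 and Ube2dnl2 had no count in any library and Ube2u had 2 counts in all. The lowest member, Ube2cbp, had 1562 counts, so the minimum separated the 2 sets by a wide margin. All 31 members passed the filter on low counts and were tested. Ube2cbp is named after an E2 and is not an E2 itself, but it meets the rule and is counted below among the 31 E2 genes and in their sum.

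NIH-3T3 is an established line of immortalized mouse fibroblasts. Wild-type (WT) cells and cells lacking Nrf1 (Nrf1-KO), a transcription factor of proteasome genes whose gene is listed as Nfe2l1, were each treated with DMSO, or with CFZ at 200 nM over a period of either 6 h or 24 h. Each of these 6 groups had 3 mRNA libraries, made from total RNA and described by the study as biological replicates. The Nrf1-KO line had been made earlier with CRISPR/Cas9, whether it derives from 1 clone is not given in the sources used here, and neither is the time that control cells spent in DMSO, the vehicle. Each line is therefore 1 cell line, and the 2 lines can differ in more than Nrf1.

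Ubiquitin reaches its substrates by a relay. An E1 enzyme activates ubiquitin and passes it to the active-site cysteine of an E2, and an E3 ligase then brings the charged E2 to the substrate. The E2 often decides which lysine of ubiquitin is used to build a chain. Chains through a lysine called Lys48 mark proteins for the proteasome, those through Lys63 serve signalling and DNA repair, and Lys11 chains are built in mitosis. A few E2s carry a small protein related to ubiquitin, such as NEDD8 or ISG15, in its place. CFZ blocks the proteasome, the complex at the end of this pathway, and Nrf1 is known to raise the transcription of proteasome genes when the proteasome is inhibited.

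The libraries held 8333148 to 23917081 counts, with a median of 14419832. Levels are given below in CPM, which are counts relative to the total count of the library after TMM scaling, and a gene was called when edgeR's quasi-likelihood test over the 11762 genes tested gave an adjusted p under 0.05. Nfe2l1 itself stood at 457, 437 and 449 CPM in WT DMSO and at 174, 185 and 181 CPM in Nrf1-KO DMSO, a log2 difference of -1.31, adjusted p = 1.56e-24, so the transcript was lower but still counted in the Nrf1-KO line. In Nrf1-KO cells given CFZ it stood at 413, 416 and 427 CPM at 6 h and 209.5, 202 and 201 CPM at 24 h. The 31 proteasome genes of a list were called higher 31 of 31 times in WT cells at 24 h (median log2 1.49) and 22 of 31 times in Nrf1-KO cells (median 0.31), with 3 lower. Summed levels of 18 proliferation genes were lower with CFZ in both lines, from a range of 3205 to 3427 CPM in WT DMSO to one of 1397 to 1457 CPM at 24 h, and from a range of 3155 to 3383 CPM to one of 783 to 818 CPM in Nrf1-KO cells. The 8 fibroblast markers summed to 33992 to 36707 CPM in WT DMSO and 8567 to 8869 CPM at 24 h of CFZ, and to 27819 to 34249.8 and 11465 to 13506 CPM in the Nrf1-KO line. These lists moved with CFZ in the comparisons below, and their part in the results was not tested. Markers of other cell types were low but not all near 0: the 4 endothelial, 5 epithelial and 5 immune genes summed to at most 4.33, 13.0 and 17.5 CPM, and Epcam, Krt18 and Cd3e had no count in any library. Cdh1 ranged from 0.333 to 13.0 CPM and Lyz2 from 3.94 to 15.8 CPM, which reaches the level of the lowest members. The epithelial sum lay between 5.90 and 6.36 CPM in WT DMSO and between 0.360 and 0.813 CPM at 24 h, and in Nrf1-KO cells between 10.8 and 13.0 and between 0.333 and 0.698 CPM. The immune sum lay between 11.7 and 11.9995 CPM in WT DMSO and between 8.64 and 10.0 CPM at 24 h, and in Nrf1-KO cells between 15.8 and 17.5 and between 9.76 and 10.2 CPM. The endothelial sum went up, from between 0.531 and 0.913 CPM in WT DMSO to between 3.35 and 4.15 CPM at 24 h. In Nrf1-KO cells it lay between 0.637 and 0.919 CPM in DMSO and between 3.87 and 4.33 CPM at 24 h. The part of these markers in the results was not tested either. Between replicates of a group, a chi-square of the counts per degree of freedom was 8.47 for Nrf1-KO CFZ 24 h replicates 1 and 3 and 5.50 for Nrf1-KO DMSO replicates 1 and 3, as against 1.44 to 3.54 for the 16 other pairs. Without any 1 of these 4 libraries, 24 to 28 E2 genes were called in Nrf1-KO cells at 24 h, as against 26 with all of them. In bulk samples, fewer cells and less RNA per cell cannot be told apart, and CPM gives a gene's share of the RNA and not its amount per cell.

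Before the levels, the promoter windows of the E2 genes are shown where they hold 1 of 2 motifs taken from what is known of Nrf1 and of stress responses. The core of the antioxidant response element (ARE), TGACNNNGC, is the kind of site that Nrf1 binds with a small Maf partner, and the cyclic AMP response element (CRE), TGACGTCA, is a site of the ATF and CREB family. Both motifs were picked with the results known. Both strands were searched in the 250 bases before and 50 bases after each RefSeq start (GRCm38.p6), which was available for 24 of the 31 members. The other 7 include Ube2w, Ube2g2, Ube2o, Ube2v2, Ube2d2a and Ube2e3. An ARE core lay in the window of 5 of the 24, as against 14% of all 27025 genes with a window, and a CRE in 2 of the 24, as against 2.03% of all genes. Each line below gives 30 bases 5′ to 3′ on the gene's own strand, with the motif in capitals, which ends rather than begins with the TGAC of the ARE core, as its reverse complement, where the core lies on the opposite strand.
Ube2f, chr1:91250583-91250612: gccgccgcccGCAAGGTCAcggtgcggagc
Ube2e2, chr14:18893414-18893443: caggcctcccTGACCCTGCgcgtgtccgct
Ube2v1, chr2:167632207-167632236: tcccggaagcGCACGGTCAccccggggccc
Ube2j1, chr4:33031301-33031330: cgaagcgcccGCCACGTCAggccgacttca
Ube2j1, chr4:33031339-33031368: gcgccggcggTGACGCAGCggcgcgtcagc
Ube2q2, chr9:55149226-55149255: gcggaaagggGCTGGGTCAtgagaggaggg
Ube2b, chr11:52000769-52000798: gtcacgtgactTGACGTCAccccccccccc
Ube2h, chr6:30304545-30304574: cgcccctcagaTGACGTCAcagaggtgaca
The first 6 of these windows carry the ARE core and the last 2, of Ube2b and Ube2h, the palindromic CRE. The 2 motifs share their first 4 letters, TGAC, but no window shown holds both at the same place. The windows of Ube2f and Ube2q2 lie wholly inside annotated exons of their genes. A match is a description of these letters only, and no binding was measured here.

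After 6 h of CFZ, 16 of the 31 E2 genes were called higher and 6 lower in WT cells, beside 35.6% and 36.2% of all genes tested. At 24 h, 19 were higher and 9 lower in WT cells, beside 43.2% and 40.5% of all genes. The Nrf1-KO cells had 13 higher and 10 lower at 6 h, beside 34.5% and 35%, and 17 higher and 9 lower at 24 h, beside 44.4% and 41.1%. A call was thus common for any gene in this table, and the size of each change is given below. The median log2 fold change of the members was 0.16 at 6 h and 0.26 at 24 h in WT cells, as compared with -0.019 and 0.023 over all genes. In the Nrf1-KO line the members' medians were 0.042 and 0.17, beside -0.0082 and 0.030.

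Most of these changes were small. With a fold of at least 2 required, Ube2o was the one E2 gene called in WT cells at 6 h, beside 9.63% of all genes in either direction, and Ube2o and Ube2f were the 2 called at 24 h, beside 25%. No E2 gene was called with a fold of 2 in Nrf1-KO cells, beside 7.56% of all genes at 6 h and 26.7% at 24 h. Over the 6 groups the highest group mean of a member was between 1.20 and 4.98 times its lowest, with a median of 1.63, and 5 members reached 2. The WT CFZ 24 h group held the highest mean of 11 members and the Nrf1-KO DMSO group the lowest mean of 12. Summed over the 31 genes, E2 transcripts came to 2509 ± 8.92 CPM in WT DMSO, 3044 ± 28.1 CPM at 6 h and 3258 ± 26.4 CPM at 24 h (SD, n = 3). The sums in Nrf1-KO cells were 2397 ± 35.6, 2683 ± 26.7 and 2954 ± 74.8 CPM in the same order. The 3 sums of each CFZ group lay above those of the DMSO group of the same line, and those of Nrf1-KO cells lay below those of WT cells in each treatment. As a share of the raw counts, with no TMM scaling, the untreated lines overlapped, at 0.254% to 0.264% in Nrf1-KO and 0.261% to 0.265% in WT cells.

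**Figure D1:**
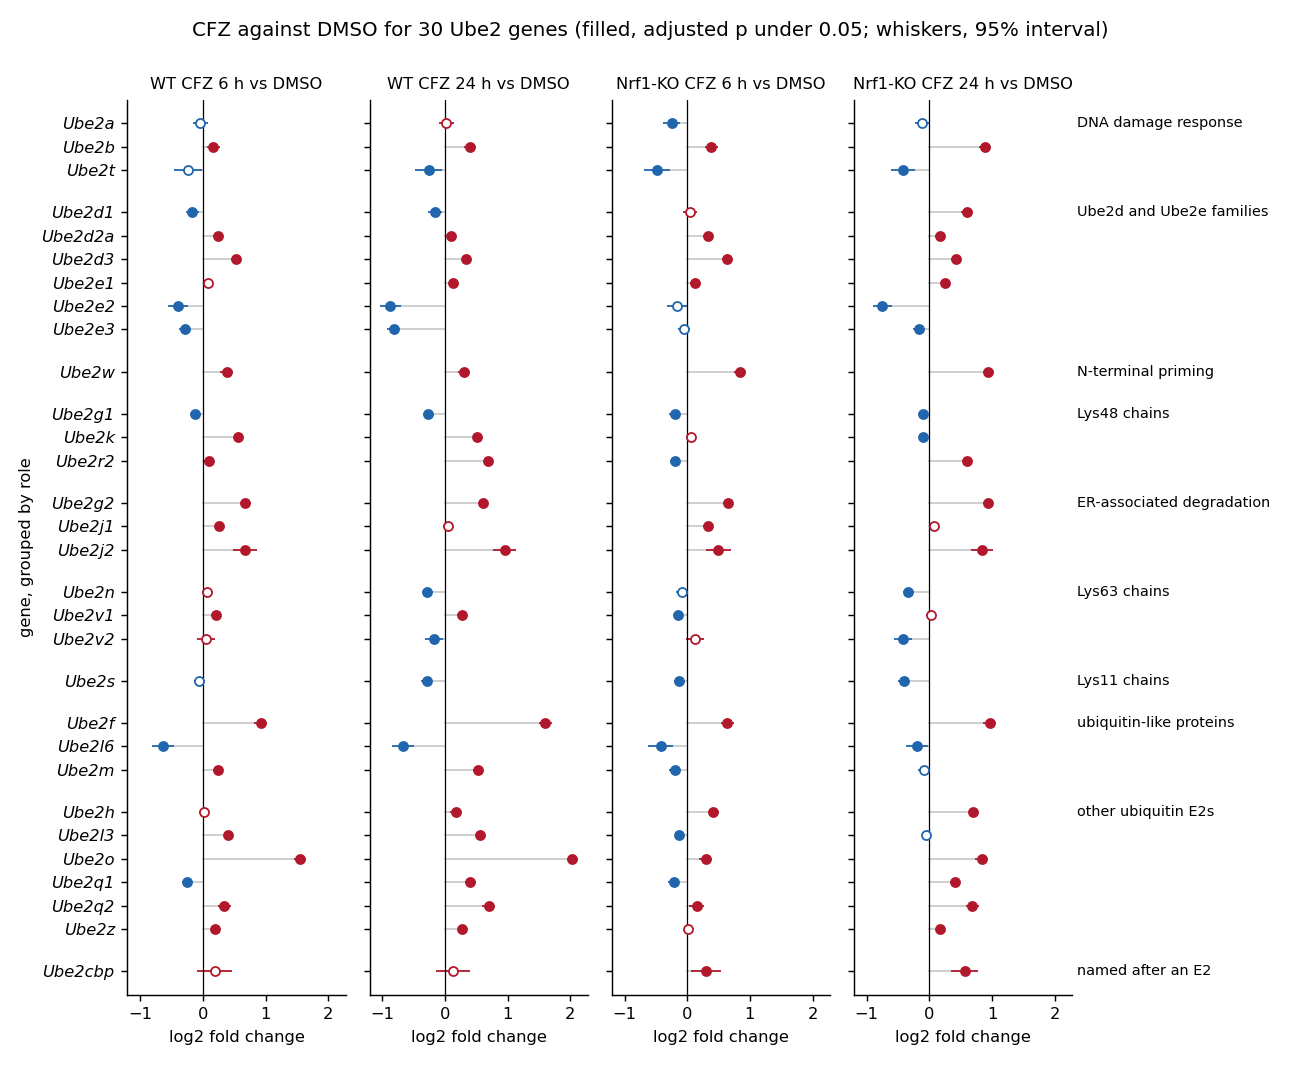
Log2 fold change of 30 of the 31 E2 genes (x axis) after CFZ against DMSO, for WT and Nrf1-KO cells at 6 h and 24 h, with genes ordered by role on the y axis, bars for the 95% confidence interval and filled points for genes called. Ube2o in WT cells lies farthest to the right, at 2.03 at 24 h, and Ube2f follows at 1.60.

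These counts depend on how the libraries were scaled. With scaling to the library size alone, the median of all genes moved by -0.13 in WT cells at 6 h, -0.10 in WT cells at 24 h, -0.11 in Nrf1-KO cells at 6 h and -0.18 in Nrf1-KO cells at 24 h on the log2 scale. Upper-quartile scaling moved it by -0.11 in WT cells at 6 h, by -0.13 in WT cells at 24 h and by -0.11 in Nrf1-KO cells at 24 h. With library size alone, 12 E2 genes were higher and 10 lower in WT cells at 6 h, 10 and 15 in Nrf1-KO cells at 6 h, and 14 and 14 in Nrf1-KO cells at 24 h. With upper-quartile scaling the numbers were 14 and 9 in WT cells and 10 and 13 in Nrf1-KO cells, both at 6 h. The counts under other scalings, here and below, have no share of all genes beside them and show only the dependence on scaling. The members with the larger changes, among them Ube2o, Ube2f, Ube2j2 and Ube2w, had changes larger than any of these shifts.

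Ube2o, a large E2 that also acts as its own E3 ligase and is known to mark unassembled ribosomal and other orphan proteins, showed the largest change of the family. Its 3 WT libraries had 71.0, 72.5 and 73.3 CPM in DMSO, 216, 214 and 205 CPM at 6 h and 296, 294 and 294 CPM at 24 h. In the Nrf1-KO line the levels were 65.9, 57.3 and 54.3 CPM in DMSO, 71.8, 71.1 and 73.0 CPM at 6 h and 109.5, 107 and 96.6 CPM at 24 h. No group overlapped the DMSO group of its line, and the lowest WT library at 6 h already stood above every Nrf1-KO library at 24 h. Here and below, the ± after a log2 value is the standard error of the edgeR fit. After a level or a share it is the SD of the 3 libraries. In WT cells Ube2o rose 2.93-fold at 6 h (log2 1.55 ± 0.047, adjusted p = 1.8e-23) and 4.08-fold at 24 h (log2 2.03 ± 0.046, adjusted p = 2.59e-27). The Nrf1-KO cells had 1.22-fold at 6 h (log2 0.29 ± 0.055, adjusted p = 2.32e-05) and 1.78-fold at 24 h (log2 0.83 ± 0.050, adjusted p = 3.72e-16). The difference between the lines, which is the interaction term of the fit (the log2 fold change in Nrf1-KO cells minus that in WT cells), was -1.26 ± 0.072, adjusted p = 3.17e-15 at 6 h and -1.20 ± 0.069, adjusted p = 9.53e-16 at 24 h. In DMSO alone Ube2o was also lower in the Nrf1-KO line, by a log2 difference of -0.30 ± 0.052, adjusted p = 1.29e-05. Ube2o is annotated on chromosome 11 of GRCm38, from 116537740 to 116581447 on the minus strand, and shares no exonic sequence with another gene.

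**Figure D2:**
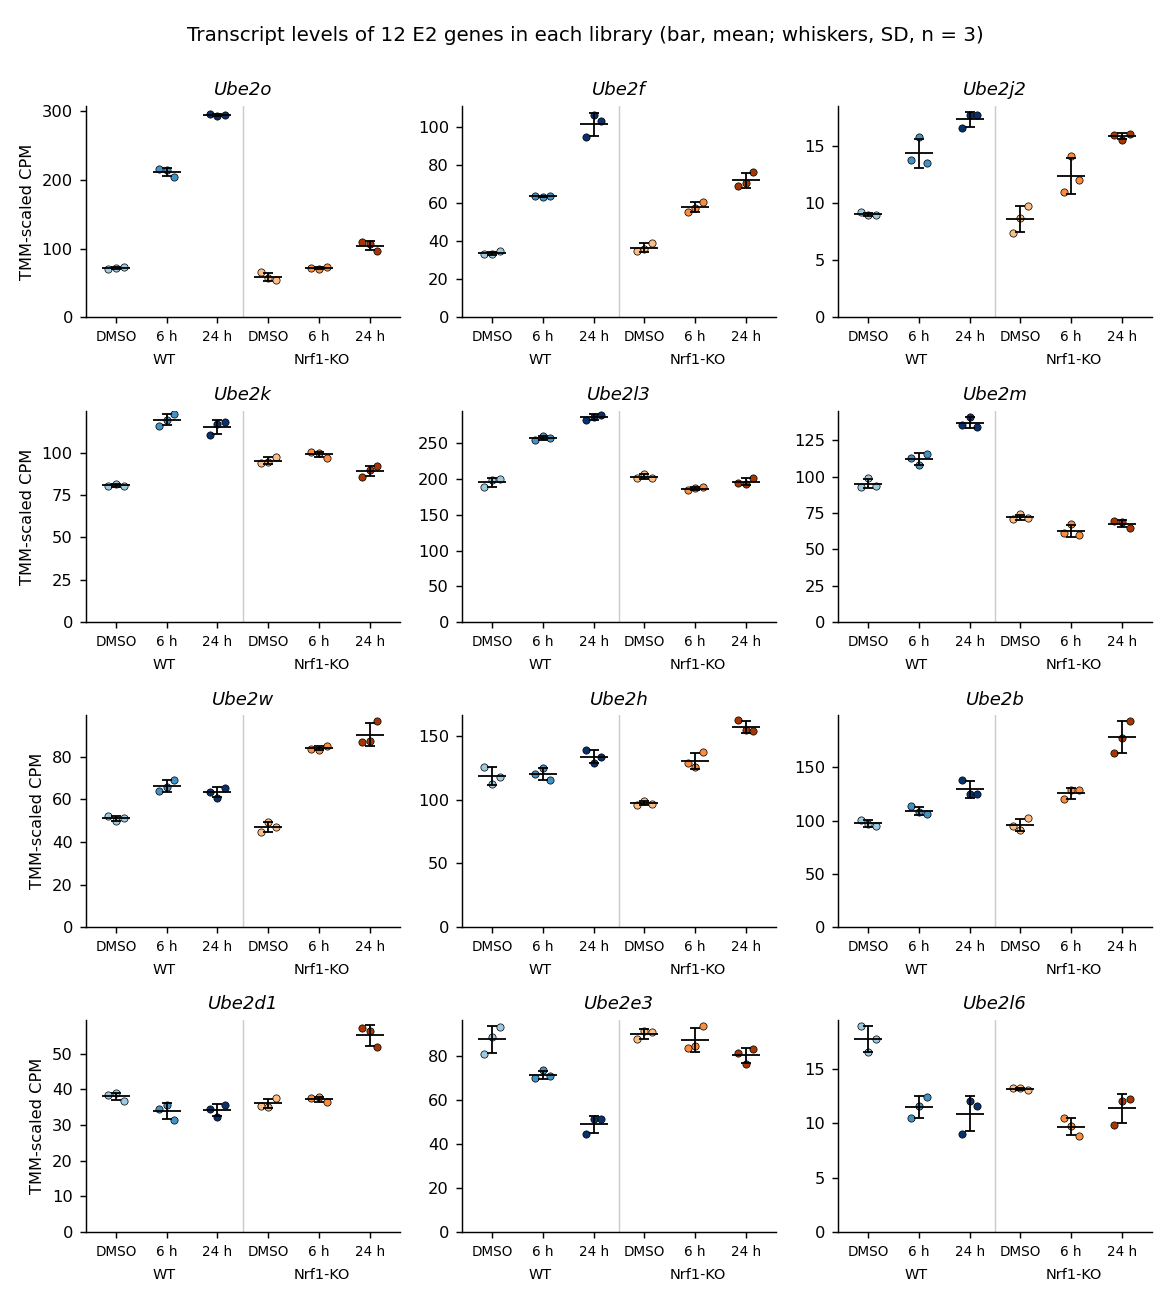
CPM (y axis, starting at 0) of 12 E2 genes in each of the 18 libraries, by group, with points for libraries and bars for the mean ± SD of the 3. The WT libraries of Ube2o climb from 71.0 to 73.3 CPM in DMSO to 294 to 296 CPM at 24 h, and those of the Nrf1-KO line end at 96.6 to 109.5 CPM.

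The E2s of the ubiquitin-like proteins changed in different directions. Ube2f and Ube2m both carry NEDD8, a modifier that switches on the cullin ligases, and serve different cullins. Ube2f had 33.0, 33.1 and 34.6 CPM in WT DMSO, 63.4, 63.4 and 63.8 CPM at 6 h and 94.4, 106 and 103 CPM at 24 h. Its Nrf1-KO libraries had 34.9, 35.9 and 39.2, then 55.5, 57.6 and 60.4, then 68.8, 70.5 and 76.3 CPM. The CFZ libraries lay above the DMSO libraries in both lines, and the WT libraries above the Nrf1-KO libraries at both times of CFZ. Ube2f rose 3.03-fold in WT cells at 24 h (log2 1.60 ± 0.051, adjusted p = 1.82e-23) and 1.95-fold in Nrf1-KO cells (log2 0.96 ± 0.051, adjusted p = 1.3e-17). The fold change was smaller in the Nrf1-KO line at 6 h (interaction -0.28 ± 0.078, adjusted p = 0.00458) and at 24 h (-0.64 ± 0.073, adjusted p = 6.24e-09).

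Ube2m, the more abundant NEDD8 enzyme per length in untreated cells, was called higher in the WT line and not in the Nrf1-KO line. Its WT libraries had 93.0, 98.9 and 93.8 CPM in DMSO, 113, 108 and 115 CPM at 6 h and 135, 141 and 134 CPM at 24 h. Nrf1-KO libraries had 70.8, 74.1 and 71.3 CPM in DMSO, 61.0, 67.2 and 60.1 CPM at 6 h and 69.4, 69.0 and 64.8 CPM at 24 h. All 9 Nrf1-KO libraries were below all 9 WT libraries. As a log2 fold change, the response at 24 h was 0.53 ± 0.040, adjusted p = 1.71e-13 in WT cells and -0.089 ± 0.044, adjusted p = 0.0605 in Nrf1-KO cells, and at 6 h 0.23 ± 0.041, adjusted p = 7.7e-06 and -0.19 ± 0.047, adjusted p = 0.000525. The value at 24 h in Nrf1-KO cells moved to -0.27 (adjusted p 1.79e-06) with library size alone and to -0.20 (adjusted p 0.000116) with upper-quartile scaling, and was then called lower, as it also was with an unfiltered table, the compared groups alone and the replicate block. The interaction was -0.43 ± 0.062, adjusted p = 1.53e-06 at 6 h and -0.61 ± 0.060, adjusted p = 2.09e-10 at 24 h, and the untreated lines differed by a log2 of -0.40 ± 0.042, adjusted p = 1.22e-09.

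Ube2l6 carries ISG15, the interferon-induced relative of ubiquitin, and was lower with CFZ. It had 19.0, 16.6 and 17.8 CPM in WT DMSO, 10.5, 11.6 and 12.4 CPM at 6 h and 9.05, 12.1 and 11.6 CPM at 24 h. The levels in the Nrf1-KO line for DMSO, 6 h and 24 h were 13.2, 13.2 and 13.1, then 10.5, 9.73 and 8.87, then 9.86, 12.1 and 12.2 CPM. Untreated WT cells thus had the highest level, above every other library. The log2 fold change in WT cells was -0.63 ± 0.091, adjusted p = 3.09e-07 at 6 h and -0.68 ± 0.091, adjusted p = 4.75e-08 at 24 h. In the Nrf1-KO line it was -0.42 ± 0.10, adjusted p = 0.000565 at 6 h and -0.20 ± 0.092, adjusted p = 0.0455 at 24 h, and the call at 24 h was lost without 5 of the 18 libraries in turn (adjusted p up to 0.153) and with DESeq2 (adjusted p 0.0553). The interaction at 24 h was 0.48 ± 0.13, adjusted p = 0.00210, and in DMSO the Nrf1-KO line was lower by a log2 of -0.44 ± 0.082, adjusted p = 3.91e-05.

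Ube2g2, Ube2j1 and Ube2j2 serve ER-associated degradation, which returns misfolded proteins of the endoplasmic reticulum to the cytosol for the proteasome. Ube2j2, anchored in the ER membrane, had 9.18, 8.92 and 8.95 CPM in WT DMSO, 13.8, 15.8 and 13.5 CPM at 6 h and 16.6, 17.7 and 17.7 CPM at 24 h. In Nrf1-KO cells it had 7.42, 8.72 and 9.72 CPM, then 11.01, 14.1 and 11.99 CPM, then 15.9, 15.5 and 16.05 CPM. Both CFZ groups lay above the DMSO group in both lines. In log2 terms, the fold change was 0.95 ± 0.092, adjusted p = 4.61e-11 in WT cells and 0.85 ± 0.090, adjusted p = 3.66e-10 in Nrf1-KO cells at 24 h, and the interaction of -0.10 ± 0.13, adjusted p = 0.519 did not pass the test (95% interval -0.36 to 0.15).

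Ube2g2, a Lys48 enzyme that works in ER-associated degradation, rose in both lines as well. The WT libraries had 50.5, 55.5 and 55.4 CPM in DMSO, 87.8, 85.3 and 84.5 CPM at 6 h and 79.4, 81.3 and 83.7 CPM at 24 h. In libraries of the Nrf1-KO line it had 51.7, 53.7 and 50.4, then 81.0, 82.7 and 80.1, then 95.8, 99.3 and 101 CPM. The WT libraries at 24 h were no higher than those at 6 h, and the Nrf1-KO libraries were above the WT libraries at 24 h. By the edgeR fit, the log2 fold change was 0.68 ± 0.043, adjusted p = 3.52e-15 at 6 h and 0.61 ± 0.043, adjusted p = 2.43e-14 at 24 h in WT cells, and 0.65 ± 0.044, adjusted p = 2.27e-14 and 0.93 ± 0.041, adjusted p = 8.86e-20 in Nrf1-KO cells. The interaction was 0.33 ± 0.059, adjusted p = 2.08e-05 at 24 h, where the Nrf1-KO line had the larger fold change.

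Ube2j1, the other membrane-anchored enzyme, was raised at 6 h and not at 24 h. It had 96.9, 101 and 98.4 CPM in WT DMSO, 117, 120.0 and 118 CPM at 6 h and 104, 100.5 and 102 CPM at 24 h. In the Nrf1-KO line it had 63.7, 66.7 and 67.9, then 86.4, 81.0 and 83.5, then 71.4, 70.1 and 68.6 CPM. All 9 Nrf1-KO libraries were below all 9 WT libraries. The log2 fold change at 6 h was 0.26 ± 0.036, adjusted p = 1.42e-07 in WT cells and 0.34 ± 0.040, adjusted p = 7.56e-09 in Nrf1-KO cells, and at 24 h 0.045 ± 0.036, adjusted p = 0.245 and 0.080 ± 0.039, adjusted p = 0.0569. Under other scalings both 24 h values turned below 0, and were called lower at -0.092 in WT cells with upper-quartile scaling and at -0.10 in Nrf1-KO cells with library size alone. The lines differed in DMSO by a log2 of -0.58 ± 0.037, adjusted p = 2.15e-14, the largest difference of the family between untreated cells.

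Of the enzymes that build Lys48 chains, Ube2k rose in the WT line and differed in its response between the lines. It had 80.6, 81.5 and 80.2 CPM in WT DMSO, 116, 119 and 123 CPM at 6 h and 111, 117 and 118 CPM at 24 h. The Nrf1-KO libraries had 93.8, 94.7 and 97.4 CPM in DMSO, 100.4, 99.5 and 97.1 CPM at 6 h and 85.9, 89.7 and 92.0 CPM at 24 h. Untreated Nrf1-KO cells thus started above WT cells and ended below them. As a log2 fold change, the response was 0.56 ± 0.037, adjusted p = 1.21e-14 at 6 h and 0.52 ± 0.037, adjusted p = 4.05e-14 at 24 h in WT cells. The Nrf1-KO values were 0.055 ± 0.038, adjusted p = 0.200 at 6 h and -0.097 ± 0.037, adjusted p = 0.0167 at 24 h, a call that was lost without Nrf1-KO DMSO replicate 3 (adjusted p 0.0708). The interaction was -0.51 ± 0.053, adjusted p = 3.25e-09 at 6 h and -0.61 ± 0.052, adjusted p = 1.25e-11 at 24 h, and the DMSO groups differed by a log2 of 0.24 ± 0.037, adjusted p = 1.84e-06.

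Ube2r2 and Ube2g1 also build Lys48 chains, and Ube2r2, a relative of Cdc34, serves the SCF cullin ligases. Ube2r2 went from 113 ± 3.71 CPM in WT DMSO to 121 ± 1.46 CPM at 6 h and 182 ± 6.87 CPM at 24 h, and from 111 ± 4.54 to 97.95 ± 3.03 and 168 ± 1.99 CPM in Nrf1-KO cells. It was called higher at 24 h in both lines, with a log2 of 0.69 and 0.59. At 6 h its log2 of 0.097 in WT cells turned to -0.012 with upper-quartile scaling and to -0.035 with library size alone, and the call was lost without WT DMSO replicate 2 or WT DMSO replicate 3 (adjusted p up to 0.0941), while the value in Nrf1-KO cells was -0.19. Ube2g1 was lower at 24 h in both lines, at 74.1 ± 1.45 CPM as compared with 88.8 ± 1.89 CPM in WT cells and at 84.4 ± 5.35 as compared with 90.6 ± 2.91 CPM in Nrf1-KO cells. The corresponding log2 values were -0.26 and -0.10, and the second call was lost without Nrf1-KO DMSO replicate 2, Nrf1-KO DMSO replicate 3 or Nrf1-KO CFZ 24 h replicate 1 (adjusted p up to 0.0755).

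Ube2l3, known as UbcH7, works with HECT and RBR ligases such as Arih1. Its level was 188, 198 and 199 CPM in WT DMSO, 254, 259.8 and 257 CPM at 6 h and 282, 286 and 289.6 CPM at 24 h. In Nrf1-KO cells it was 202, 207 and 201, then 184, 187 and 188, then 194, 193 and 202 CPM. The WT libraries of both CFZ groups were above every Nrf1-KO library. In log2 terms, the fold change was 0.40 ± 0.032, adjusted p = 1.82e-12 at 6 h and 0.55 ± 0.032, adjusted p = 1.55e-16 at 24 h in WT cells, as compared with -0.12 ± 0.033, adjusted p = 0.00145 and -0.050 ± 0.032, adjusted p = 0.148 in Nrf1-KO cells. The last of these moved to -0.23 (adjusted p 1.15e-07) with library size alone and to -0.16 (adjusted p 5.08e-05) with upper-quartile scaling, and was then called lower, as it also was with an unfiltered table. The interaction was -0.52 ± 0.046, adjusted p = 1.06e-10 at 6 h and -0.60 ± 0.046, adjusted p = 7.37e-13 at 24 h. Of the read-length stretches in the Ube2l3 exons, 28.8% also occur in another annotated gene, and 28.6% of the exonic bases overlap Ydjc on the opposite strand, so part of these counts is uncertain. The stretches were sought on either strand and Ydjc is among the genes that share them, so these shares are not separate.

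Ube2h, whose known partner is the CTLH ligase with Maea and Rmnd5a, responded more in the Nrf1-KO line. It had 126, 112 and 117 CPM in WT DMSO, 120.0, 124.95 and 116 CPM at 6 h and 139, 129 and 133 CPM at 24 h. Nrf1-KO libraries had 96.1, 98.9 and 96.7 CPM in DMSO, 128, 125.2 and 137 CPM at 6 h and 163, 155 and 154 CPM at 24 h. Untreated Nrf1-KO cells were below untreated WT cells, and the order was turned round at both times of CFZ. At 6 h the lines differed by a log2 of only 0.11, and that call was lost without 4 of the 18 libraries in turn (adjusted p up to 0.197). By the edgeR fit, the log2 fold change was 0.020 ± 0.043, adjusted p = 0.686 at 6 h and 0.17 ± 0.042, adjusted p = 0.000539 at 24 h in WT cells, and 0.42 ± 0.044, adjusted p = 6.31e-10 and 0.69 ± 0.042, adjusted p = 3.61e-16 in Nrf1-KO cells. The WT call at 24 h was lost under other scalings, which moved the value to 0.064 (adjusted p 0.166) with library size alone and to 0.032 (adjusted p 0.490) with upper-quartile scaling. The WT value at 6 h turned to -0.11 with library size alone and was then called. The interaction was 0.40 ± 0.061, adjusted p = 3.8e-06 at 6 h and 0.52 ± 0.059, adjusted p = 5.7e-09 at 24 h, and the DMSO groups differed by a log2 of -0.29 ± 0.042, adjusted p = 9.54e-07. Of its read-length stretches 25.3% occur also in Gm26526 or Gm2058, which makes its counts uncertain too.

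Ube2q2, an E2 with a long N-terminal extension, had 47.5, 47.1 and 45.1 CPM in WT DMSO, 55.8, 62.8 and 58.7 CPM at 6 h and 71.4, 78.7 and 75.4 CPM at 24 h. Its Nrf1-KO libraries had 36.1, 34.1 and 39.4, then 41.3, 39.2 and 42.7, then 58.4, 57.5 and 61.4 CPM. By 24 h it went up in both lines from a lower start in the Nrf1-KO line. At 24 h the log2 fold change was 0.70 ± 0.051, adjusted p = 6.13e-14 in WT cells and 0.68 ± 0.053, adjusted p = 2.43e-13 in Nrf1-KO cells, and the DMSO groups differed by -0.34 ± 0.054, adjusted p = 3.47e-06. At 6 h the log2 fold change in Nrf1-KO cells was 0.15 ± 0.060, adjusted p = 0.0258, with libraries that overlapped those in DMSO. That call was lost without 7 of the 18 libraries in turn (adjusted p up to 0.135), and also with DESeq2, an unfiltered table and both other scalings (adjusted p up to 0.573). Its relative Ube2q1 fell at 6 h and rose at 24 h in both lines, from 63.3 ± 1.13 to 53.2 ± 0.456 and then 83.5 ± 4.55 CPM in WT cells and from 70.6 ± 1.89 to 61.1 ± 2.498 and then 93.8 ± 2.11 CPM in Nrf1-KO cells. The log2 values of Ube2q1 were -0.25 and 0.41 in WT cells and -0.22 and 0.41 in Nrf1-KO cells, and all 4 were called.

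Ube2z, which takes ubiquitin or FAT10 from the E1 Uba6, rose from 166 ± 0.795 to 201 ± 3.45 CPM in WT cells at 24 h, a log2 of 0.28. In Nrf1-KO cells it went from 159 ± 3.64 to 180.1 ± 2.47 CPM, and the log2 of 0.17 there turned to -0.0090 with library size alone. Ube2cbp had the lowest summed count of all members. Its WT libraries had 3.91, 4.90 and 3.78 CPM in DMSO, 5.08, 4.44 and 4.82 CPM at 6 h and 3.56, 4.92 and 4.90 CPM at 24 h. In libraries of the Nrf1-KO line it had 4.99, 5.73 and 5.90, then 6.68, 7.41 and 6.47, then 8.73, 8.32 and 7.80 CPM. The WT groups overlapped each other, and the Nrf1-KO groups lay above the WT group of the same treatment. In Nrf1-KO cells it rose by a log2 of 0.56 ± 0.11, adjusted p = 2.14e-05 at 24 h, as compared with 0.13 ± 0.14, adjusted p = 0.391 in WT cells, and in DMSO the lines differed by 0.42 ± 0.12, adjusted p = 0.00555. The interaction at 24 h of 0.43 ± 0.18, adjusted p = 0.0354 was lost without 5 of the 18 libraries in turn (adjusted p up to 0.174), and also with DESeq2 and with library size alone.

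Ube2w, which attaches the first ubiquitin to the N-terminus of a substrate, rose in both lines and by more in Nrf1-KO cells. It had 52.0, 49.7 and 51.4 CPM in WT DMSO, 63.9, 66.0 and 69.1 CPM at 6 h and 63.4, 60.9 and 65.6 CPM at 24 h. In the Nrf1-KO line it had 44.8, 49.5 and 47.1 CPM in DMSO, 83.9, 83.3 and 85.4 CPM at 6 h and 87.1, 87.5 and 96.9 CPM at 24 h. The Nrf1-KO libraries were above the WT libraries at both times of CFZ. In DMSO they were narrowly below them, by a log2 of -0.12. That call was lost without 13 of the 18 libraries in turn (adjusted p up to 0.236). It was also lost with DESeq2, the compared groups alone, an unfiltered table and both other scalings. The fold change was 1.24 in WT cells (log2 0.31 ± 0.049, adjusted p = 9.93e-07) and 1.92 in Nrf1-KO cells (log2 0.94 ± 0.046, adjusted p = 1.51e-18) at 24 h. At 6 h the log2 values were 0.38 and 0.83. The interaction was 0.46 ± 0.069, adjusted p = 2.67e-06 at 6 h and 0.63 ± 0.067, adjusted p = 1.6e-09 at 24 h.

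The Ube2d enzymes, also called UbcH5, work with many ligases and many lysines, and the related Ube2e enzymes carry an N-terminal extension. Ube2d1 had 38.4, 38.9 and 36.8 CPM in WT DMSO, 34.6, 35.7 and 31.4 CPM at 6 h and 34.5, 32.4 and 35.6 CPM at 24 h. Its Nrf1-KO libraries had 35.4, 35.1 and 37.6 CPM in DMSO, 37.5, 37.8 and 36.3 CPM at 6 h and 57.1, 56.5 and 51.8 CPM at 24 h. The 3 Nrf1-KO libraries at 24 h were above all the other libraries. Ube2d1 was the one member called lower in WT cells and higher in Nrf1-KO cells at 24 h, with log2 values of -0.16 ± 0.056, adjusted p = 0.0103 and 0.61 ± 0.050, adjusted p = 1e-12, and an interaction of 0.76 ± 0.075, adjusted p = 2.62e-10. The WT value is small, and its call was lost without WT CFZ 24 h replicate 2 (adjusted p 0.0950). Ube2d3 had the highest CPM of the family and rose early, from 285 ± 5.98 to 409 ± 10.0 and then 359.6 ± 2.03 CPM in WT cells and from 272 ± 8.95 to 420.3 ± 1.10 and then 364 ± 20.5 CPM in Nrf1-KO cells. Its log2 values at 24 h were 0.34 and 0.42. Ube2d2a also had its highest level at 6 h in both lines, at 127 ± 6.88 and 123 ± 3.12 CPM. At 24 h its log2 of 0.096 in WT cells turned to -0.041 with upper-quartile scaling and its log2 of 0.16 in Nrf1-KO cells to -0.020 with library size alone. The WT call was also lost without 11 of the 18 libraries in turn (adjusted p up to 0.143).

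The 3 Ube2e genes differed in their direction. Ube2e3 had 80.9, 88.3 and 92.9 CPM in WT DMSO, 69.9, 73.4 and 70.8 CPM at 6 h and 44.5, 51.1 and 51.1 CPM at 24 h. The Nrf1-KO libraries had 87.4, 91.3 and 91.0 CPM in DMSO, 83.6, 84.6 and 93.6 CPM at 6 h and 81.1, 76.4 and 83.1 CPM at 24 h. In WT cells the 3 groups did not overlap, and at 24 h the WT libraries were below every Nrf1-KO library. The log2 fold change at 24 h was -0.82 ± 0.054, adjusted p = 3.89e-15 in WT cells and -0.17 ± 0.049, adjusted p = 0.00226 in Nrf1-KO cells. The interaction was 0.65 ± 0.073, adjusted p = 4.34e-09 at 24 h and 0.23 ± 0.072, adjusted p = 0.010002 at 6 h, and the latter call was lost without WT CFZ 6 h replicate 1 (adjusted p 0.0557). By 24 h Ube2e2 fell in both lines, from 22.2, 21.6 and 21.9 CPM in WT DMSO to 15.5, 17.7 and 16.8 CPM at 6 h and 12.5, 13.1 and 10.4 CPM at 24 h, and from 22.5, 24.8 and 24.6 CPM to 19.9, 20.5 and 25.1 CPM and 12.8, 14.98 and 14.9 CPM in the Nrf1-KO line. The Nrf1-KO libraries at 6 h overlapped those in DMSO and did not pass the test (-0.17 ± 0.079, adjusted p = 0.0625), though they were called lower under both other scalings. Its log2 values at 24 h were -0.87 ± 0.087, adjusted p = 9.87e-11 and -0.75 ± 0.079, adjusted p = 3.22e-10, with no called interaction (0.13 ± 0.12, adjusted p = 0.383). Ube2e1 had a called log2 of 0.25 in Nrf1-KO cells and of 0.12 in WT cells at 24 h, the latter turning to -0.017 with upper-quartile scaling. Its exons overlap Nkiras1 on the opposite strand over 16.1% of their bases.

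Ube2a and Ube2b are near-identical Rad6 proteins that act with Rad18 in DNA damage tolerance. Ube2b rose from 97.4 ± 3.02 to 129 ± 7.80 CPM in WT cells (log2 0.40 ± 0.052, adjusted p = 2.78e-08) and from 95.9 ± 5.76 to 178 ± 14.9 CPM in Nrf1-KO cells (log2 0.89 ± 0.050, adjusted p = 5.5e-17), with an interaction of 0.49 ± 0.072, adjusted p = 7.6e-07 at 24 h. Ube2a did not pass the test at 24 h in either line, at 0.019 and -0.11, and was called lower in Nrf1-KO cells at 6 h (-0.25). Ube2t, the E2 of the Fanconi anaemia pathway, had 7.86, 9.03 and 7.43 CPM in WT DMSO, 6.07, 7.28 and 7.38 CPM at 6 h and 7.52, 6.30 and 6.76 CPM at 24 h. In Nrf1-KO cells it had 10.6, 10.4 and 11.5, then 8.73, 7.49 and 6.95, then 8.10, 7.49 and 8.94 CPM. The untreated Nrf1-KO libraries were the highest and were above the untreated WT libraries, by a log2 of 0.43 ± 0.096, adjusted p = 0.000337. As a log2 fold change, the response at 24 h was -0.26 ± 0.11, adjusted p = 0.0328 in WT cells and -0.42 ± 0.098, adjusted p = 0.000207 in Nrf1-KO cells, and the WT call was lost without WT DMSO replicate 2, WT CFZ 24 h replicate 2 or WT CFZ 24 h replicate 3 (adjusted p up to 0.175) and with DESeq2 (adjusted p 0.0516).

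Ube2s extends Lys11 chains with the anaphase-promoting complex and, like Ube2t, is a gene of dividing cells. It had 82.2, 79.1 and 80.5 CPM in WT DMSO, 78.6, 74.1 and 79.8 CPM at 6 h and 63.9, 68.6 and 64.0 CPM at 24 h. Nrf1-KO libraries had 77.8, 74.4 and 80.2, then 69.8, 75.1 and 67.5, then 57.7, 57.3 and 60.6 CPM. Both lines ended below their DMSO libraries. In log2 terms, the fold change at 24 h was -0.30 ± 0.045, adjusted p = 4.24e-07 in WT cells and -0.41 ± 0.044, adjusted p = 5.75e-10 in Nrf1-KO cells. The 18 proliferation genes were all called lower at 24 h in both lines, beside 40.5% of all genes in WT cells and 41.1% in Nrf1-KO cells. Their median log2 was -1.17 in WT cells and -2.47 in Nrf1-KO cells, a larger fall than that of Ube2s or Ube2t. The part of the proliferation genes in the result was not tested.

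Ube2n, known as Ubc13, builds Lys63 chains together with the inactive E2 variants Ube2v1 and Ube2v2. Ube2n went from 123 ± 6.20 to 101 ± 2.83 CPM in WT cells and from 126 ± 6.03 to 99.6 ± 6.08 CPM in Nrf1-KO cells at 24 h, with called log2 values of -0.29 and -0.34. Ube2v2 was lower, by a log2 of -0.18 in WT cells, which was lost without WT CFZ 24 h replicate 1 or WT CFZ 24 h replicate 3 (adjusted p up to 0.0756), and of -0.42 in Nrf1-KO cells. Ube2v1 had 66.6 ± 1.65 CPM in WT DMSO and 79.7 ± 1.92 CPM at 24 h, a called log2 of 0.26, and 60.7 ± 0.813 and 61.8 ± 1.27 CPM in Nrf1-KO cells. Its interaction was -0.36 ± 0.060, adjusted p = 1.49e-05 at 6 h and -0.24 ± 0.058, adjusted p = 0.000744 at 24 h. The Ube2v1 counts are uncertain, since 61.5% of its exonic bases overlap the gene model Gm20431 on the same strand and 55.4% of its read-length stretches occur in another gene. Gm20431 is among the genes that share these stretches, so the shares are not separate. Of the Ube2n stretches, 7.62% occur in another gene.

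To ask whether the response to CFZ differed between the lines, the interaction term was tested for every gene. At 6 h it was called for 14 E2 genes, 5 with the higher log2 fold change in Nrf1-KO cells and 9 with the lower, beside 19.8% and 18.4% of all genes. At 24 h it was called for 18, with 10 higher and 8 lower, beside 29.7% and 30%. With library size alone, the 24 h split was 7 and 11. Both times use the same DMSO libraries. With a fold of at least 2 required, only Ube2o was called, at both times, beside 2.78% of all genes at 6 h and 8.6% at 24 h. The median of the members was -0.053 at 6 h and 0.00064 at 24 h, and that of all genes 0.017 and 0.0049.

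The lower side held, at 24 h and from the largest, Ube2o (-1.20), Ube2f (-0.64), Ube2m (-0.61), Ube2k (-0.61) and Ube2l3 (-0.60), followed by Ube2v2, Ube2v1 and Ube2z between -0.24 and -0.10. The higher side included Ube2d1 (0.76), Ube2e3 (0.65), Ube2w (0.63), Ube2h (0.52), Ube2b (0.49), Ube2l6 (0.48), Ube2cbp (0.43), Ube2g2 (0.33) and Ube2g1 (0.16). Both NEDD8 enzymes were thus on the lower side, and of the 3 enzymes of ER-associated degradation Ube2g2 alone was called, on the higher side. The 31 proteasome genes were all on the lower side at both times, with a median of -1.14 at 6 h and -1.14 at 24 h. Of the E2 genes Ube2o alone had a difference of that size. At 6 h Ube2r2 (-0.28) and Ube2n (-0.15) were called on the lower side and at 24 h not, and the Ube2n call was lost without 10 of the 18 libraries in turn (adjusted p up to 0.115).

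**Figure D3:**
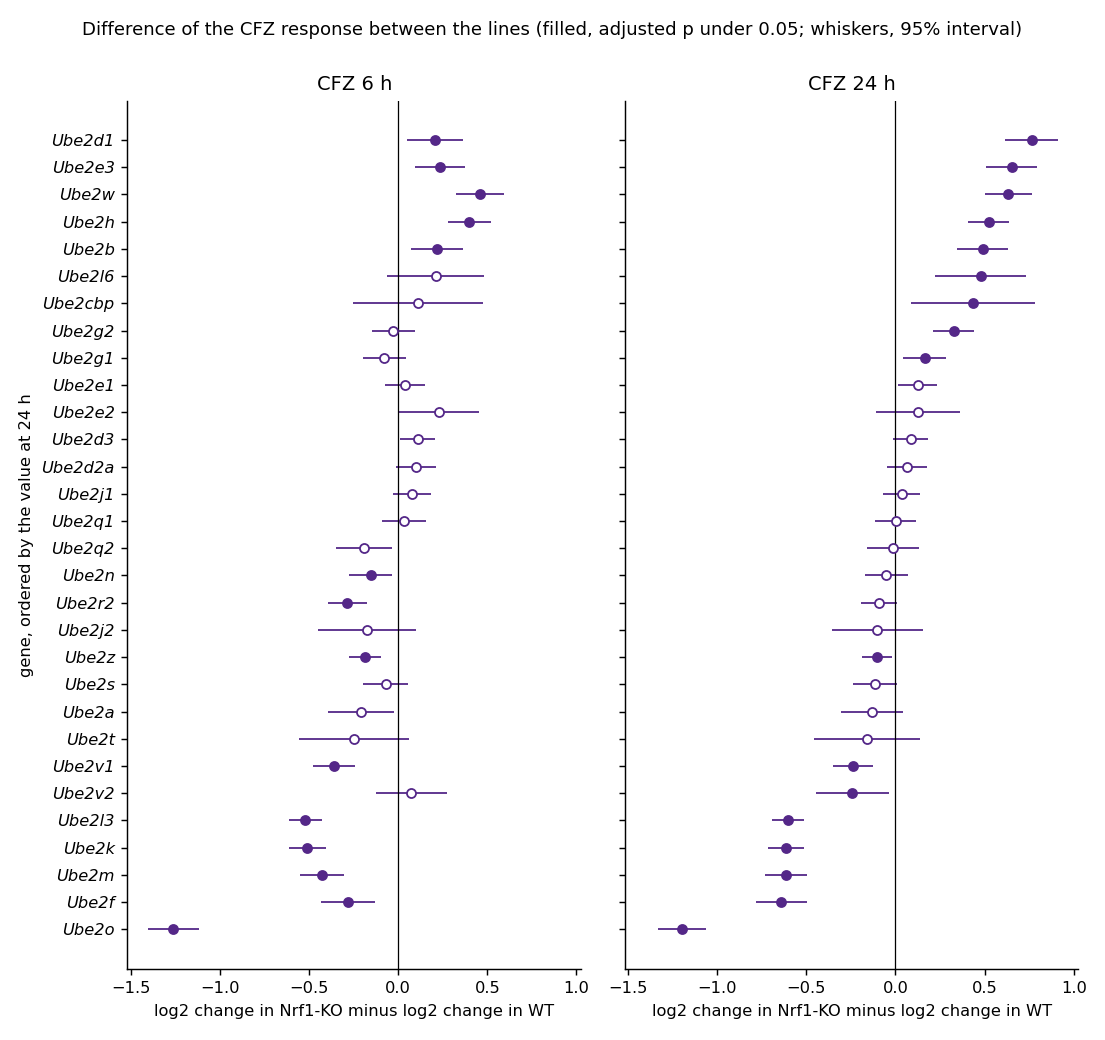
Interaction of 30 of the 31 E2 genes at 6 h and at 24 h (x axis, log2 fold change by CFZ in Nrf1-KO cells minus that in WT cells), with 95% confidence intervals and filled points for genes called. Ube2o lies alone on the left, at -1.26 at 6 h and -1.20 at 24 h, and Ube2d1 is the highest at 24 h, at 0.76.

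Set side by side at 24 h, 15 E2 genes were called higher in both lines and 8 lower in both, beside 35.2% and 32.8% of all genes. Of the 15, Ube2e1 and Ube2z changed sign in 1 line and Ube2d2a in both under another scaling, and the Ube2h call in WT cells was lost, so that 11 were called higher in both lines with library size alone and 11 with upper-quartile scaling. Of the 8, Ube2l6 (in Nrf1-KO cells) and Ube2t (in WT cells) lost a call with DESeq2. Another 3, Ube2l3, Ube2m and Ube2v1, were called higher in WT cells and not in Nrf1-KO cells, where Ube2l3 and Ube2m were called lower under both other scalings. Ube2cbp was called higher in Nrf1-KO cells and not in WT cells. Ube2k was higher in WT and lower in Nrf1-KO cells, Ube2d1 the other way round, and Ube2a and Ube2j1 were called in neither line. At 6 h, 10 were higher in both lines and 3 lower in both (Ube2g1, Ube2l6 and Ube2q1), beside 26.1% and 26.2% of all genes. Under either of the other scalings 8 were higher and 8 lower in both, with Ube2b and Ube2q2 no longer among those higher, and Ube2q2 was not called in Nrf1-KO cells with DESeq2 or an unfiltered table either. Another 4 were higher in WT and lower in Nrf1-KO cells (Ube2l3, Ube2m, Ube2v1 and Ube2r2, whose sign in WT cells depended on the scaling). No DMSO or CFZ library is shared between these comparisons of the 2 lines.

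Without CFZ, 6 E2 genes were called higher and 11 lower in Nrf1-KO than in WT cells, beside 25.7% and 29.1% of all genes, and the split became 8 and 9 with library size alone. The lowest were Ube2j1 (-0.58), Ube2l6 (-0.44), Ube2m (-0.40) and Ube2q2 (-0.34), and the highest Ube2t (0.43), Ube2cbp (0.42) and Ube2k (0.24). Without WT DMSO replicate 1 the number called lower was 7. At 6 h of CFZ, 9 were higher and 14 lower, beside 30.5% and 30.8%, and both library size alone and upper-quartile scaling gave 10 and 10. At 24 h of CFZ, 12 were higher and 12 lower, beside 35.6% and 36.4%. The largest differences at 24 h were those of Ube2o (-1.50) and Ube2m (-1.02) on the lower side and of Ube2cbp (0.85), Ube2e3 (0.70) and Ube2d1 (0.69) on the higher side. The members' medians were -0.051, -0.10 and -0.019 in DMSO, at 6 h and at 24 h, and those of all genes -0.017, 0.0036 and -0.0031.

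Between 6 h and 24 h of CFZ, 12 E2 genes went up and 9 down in WT cells, beside 36.9% and 35.4% of all genes, and 18 went up and 9 down in Nrf1-KO cells, beside 38.7% and 38.3%. The largest rises in WT cells were those of Ube2f (0.68), Ube2q1 (0.66), Ube2r2 (0.59) and Ube2o (0.48), and the largest falls those of Ube2e3 (-0.53) and Ube2e2 (-0.48). In Nrf1-KO cells Ube2r2 (0.78), Ube2q1 (0.62), Ube2d1 (0.56) and Ube2o (0.54) rose most, and Ube2e2 (-0.58) and Ube2v2 (-0.55) fell most. Ube2d3 and Ube2d2a fell from 6 h to 24 h in both lines, by log2 values of -0.18 and -0.14 in WT cells and -0.21 and -0.17 in Nrf1-KO cells.

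To compare genes with each other, levels were divided by the length of the merged exons in kilobases, which gives RPKM. In WT DMSO the highest E2 genes per length included Ube2b (45.8 ± 1.42 RPKM, SD, n = 3), Ube2z (41.4 ± 0.199), Ube2m (40.4 ± 1.36) and Ube2l3 (33.4 ± 1.09). Ube2z and Ube2m lay within 1 SD of each other, and so did not differ in order beyond their spread. In WT cells at 24 h Ube2b (60.8 ± 3.67) and Ube2m (58.1 ± 1.63) lay within 1 SD as well. The lowest were Ube2t (1.68 ± 0.172 RPKM), Ube2j2 (2.04 ± 0.0325) and Ube2cbp (2.34 ± 0.343). Ube2d3, the highest in CPM, was rank 17 of 31 per length. This rank rests on its annotated length of 24499 bases of merged exons, the longest of the members, ahead of Ube2d2a with 11565. Its longest transcript is also long, at 19300 bases, and which transcript the cells used was not determined. Of the summed RPKM of the family, Ube2b made up 8.48% ± 0.277 in WT DMSO and 13.2% ± 0.791 in Nrf1-KO cells after 24 h of CFZ. Ube2o moved from rank 16 and 2.53% ± 0.0372 of the sum in WT DMSO to rank 3 and 8.08% ± 0.0729 at 24 h. In Nrf1-KO cells it went from rank 18 and 2.21% ± 0.249 to rank 12 and 3.12% ± 0.278. The order depends on the length used: with the longest transcript in place of the merged exons, the shares in WT DMSO were 7.27% for Ube2b, 8.66% for Ube2l3 and 8.65% for Ube2m. In WT cells at 24 h they were 7.63%, 10.0% and 9.84%.

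**Figure D4:**
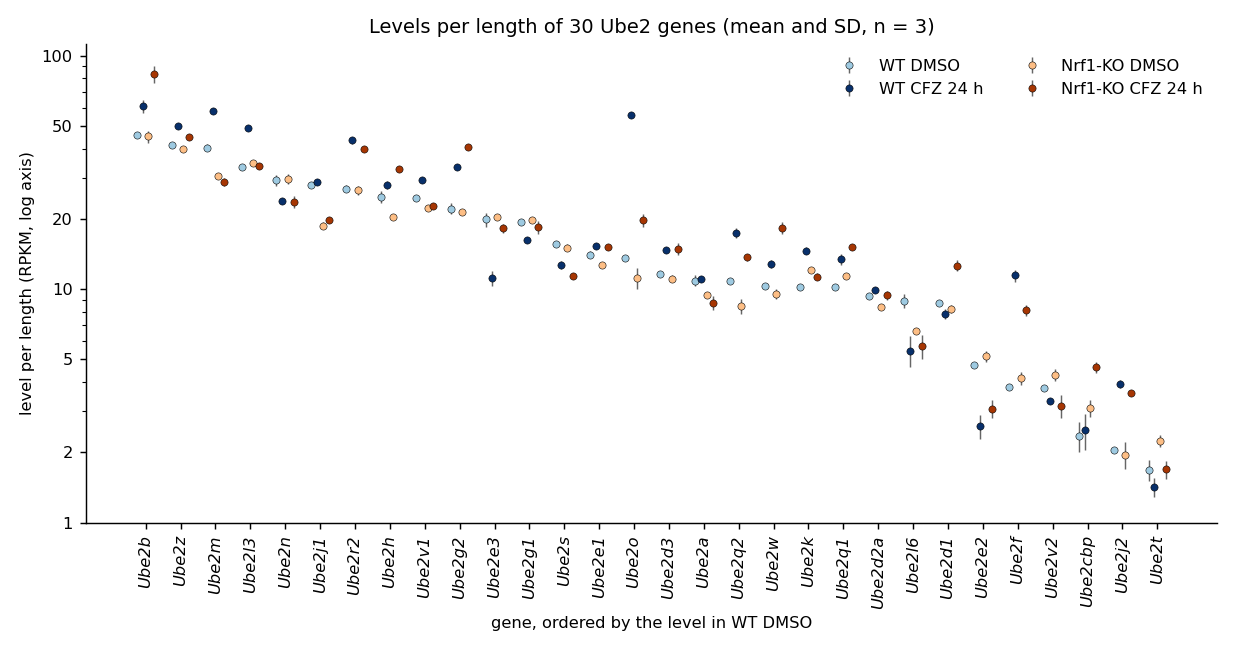
Level per length of 30 of the 31 E2 genes (RPKM, log axis) in WT and Nrf1-KO cells in DMSO and after 24 h of CFZ, as means ± SD of 3 libraries. Ube2b has the highest mean in each group shown, within 1 SD of Ube2m in WT cells at 24 h, at 45.8 RPKM in WT DMSO and 83.8 RPKM in Nrf1-KO cells at 24 h, and Ube2o stands at 55.7 RPKM in WT cells at 24 h.

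The balance within related E2 genes was described by the log2 ratio of their CPM in each library, for 11 pairs in 44 comparisons of CFZ with DMSO. The smallest p that an exact two-sided permutation test of 3 against 3 libraries allows is 0.1, and over the 44 comparisons the lowest adjusted p was 0.116, so none could pass. The Ube2a to Ube2b ratio was -1.98 in WT DMSO and -2.36 at 24 h, and -2.16 and -3.16 in Nrf1-KO cells. For Ube2f to Ube2m, the NEDD8 pair, it was -1.50 and -0.44 in WT cells and -0.98 and 0.085 in Nrf1-KO cells, a difference of 1.07 and of 1.06. The Ube2g1 to Ube2g2 ratio was 0.72 in WT DMSO and -0.14 at 24 h, as compared with 0.80 and -0.23 in Nrf1-KO cells. That of Ube2j1 to Ube2j2 was 3.45 and 2.56 in WT cells and 2.95 and 2.15 in Nrf1-KO cells. In these 4 pairs the 24 h libraries lay on the same side of the DMSO libraries in both lines, without overlap. The same held for Ube2d2a to Ube2d3, Ube2e1 to Ube2e3, Ube2q1 to Ube2q2, Ube2v1 to Ube2v2 and Cdc34 to Ube2r2. Of the 44 ratios, 38 had CFZ and DMSO libraries that did not overlap, so this was common among the pairs. The share for pairs of any other genes is not given, so whether a lack of overlap is unusual cannot be read from these ratios. For Ube2d1 to Ube2d3 the WT ratio was -2.91 in DMSO and -3.40 at 24 h, without overlap, and the Nrf1-KO libraries overlapped, at -2.91 and -2.72. The Ube2e1 to Ube2e3 ratio differed from DMSO by 0.96 in WT cells and by 0.41 in Nrf1-KO cells.

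**Figure D5:**
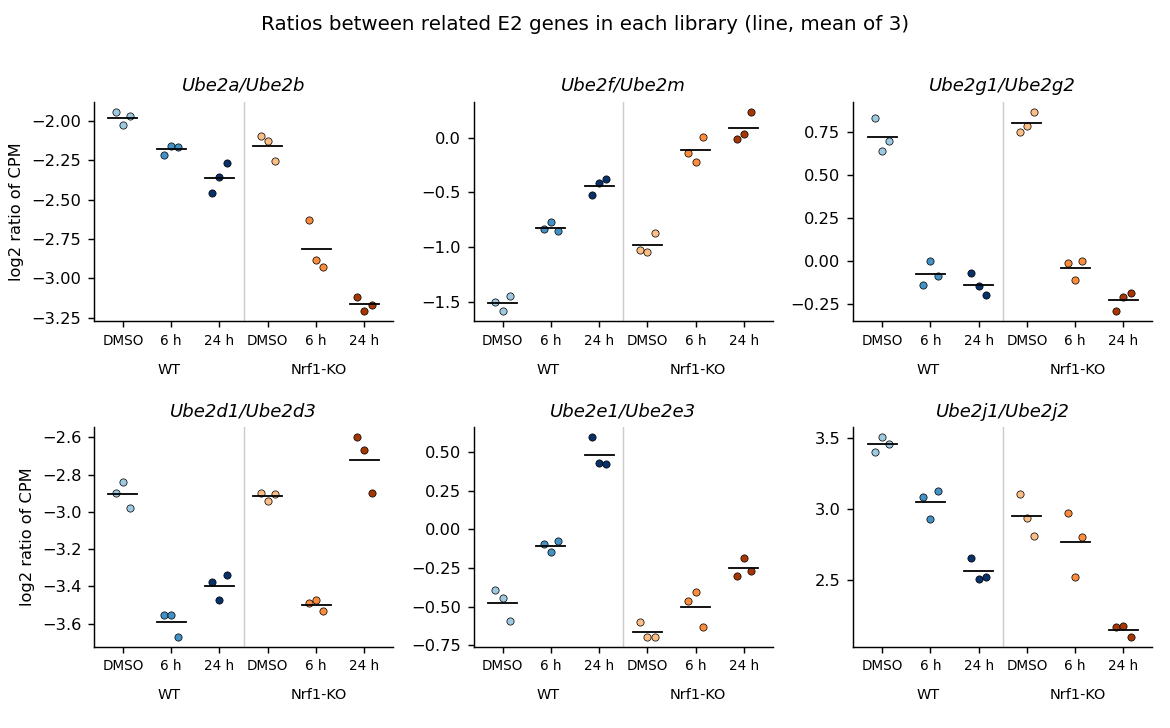
Log2 ratio of the CPM of 6 pairs of related E2 genes in each library (y axis), by group, with a point per library and a bar for the mean. The Ube2f to Ube2m ratio is higher with CFZ in both lines, at -0.44 in WT and 0.085 in Nrf1-KO cells at 24 h, and the Ube2a to Ube2b ratio is lowest at -3.16 in Nrf1-KO cells.

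The genes around the E2s in the pathway were taken from lists. At 24 h of CFZ, 43.2% of all genes tested were called higher and 40.5% lower in WT cells, and 44.4% and 41.1% in Nrf1-KO cells. Of 9 E1 genes, 6 were called higher and 2 lower in WT cells at 24 h (median log2 0.21) and 5 higher and 2 lower in Nrf1-KO cells (0.21). The 2 lower in both lines were Sae1 (-0.55 and -0.60) and Uba2 (-0.56 and -0.66), which together form the SUMO E1. Uba3 (0.65 and 0.43) and Nae1 (0.27 and 0.43), the subunits of the NEDD8 E1, were higher in both lines. Uba1, the main ubiquitin E1, had 0.093 and 0.21. At 24 h the interaction was called for 2 of the 9 E1 genes, among them Uba3 (-0.21). Over all genes it was called higher for 29.7% and lower for 30%.

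Of 8 other genes with an E2 fold, 4 were called higher and 3 lower in WT cells at 24 h, beside 43.2% and 40.5% of all genes. In Nrf1-KO cells 2 were higher and 5 lower, beside 44.4% and 41.1%. Cdc34, the SCF enzyme, had 0.35, adjusted p = 3.25e-09 in WT cells and 0.097, adjusted p = 0.0296 in Nrf1-KO cells, as log2 fold changes. Birc6, a giant E2 that restrains apoptosis, was higher in WT (0.45) and lower in Nrf1-KO cells (-0.25), with an interaction of -0.70, adjusted p = 1.22e-07. The autophagy enzymes Atg3 (-0.54 and -0.48) and Atg10 (-0.66 and -0.85) were lower in both lines, and Tsg101 (0.44 and 0.60), an inactive E2 variant of endosomal sorting, was higher in both. Of 29 E3 and partner genes, 27 were tested. At 24 h, 14 of these were higher and 10 lower in WT cells and 12 higher and 12 lower in Nrf1-KO cells, beside the same shares of all genes. The interaction was called for 18, of which 6 were higher and 12 lower in Nrf1-KO cells, beside 29.7% and 30% of all genes.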

How the data were processed

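RNA was measured by stranded mRNA sequencing in 18 libraries of NIH-3T3 cells. Per the labels and the study's methods, the authors ran STAR and DESeq2 within an RNA Express workflow on paired reads, and the deposited table holds whole-number read counts, not normalized, for 23420 gene symbols, of which 6577 had no count. The aligner version, genome build, annotation and use of strand are not given in the sources used here. Columns were matched to samples by name, and groups came from the labels.

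The members and the gene lists were chosen with earlier results of these data known, and the 2 promoter motifs likewise. Counts were filtered with filterByExpr of edgeR 4.0.16 (minimum count 10, minimum total count 15) in R 4.3.3 with limma 3.58.1, scaled with TMM and fitted with edgeR's quasi-likelihood model over all 6 groups. P-values were adjusted by Benjamini-Hochberg over the 11762 genes tested. The standard error is the log2 fold change over the root of F. The steps were tested on simulated data. Ratios were compared by an exact two-sided permutation test (SciPy 1.17.1). Lengths, overlaps and shared stretches came from a GRCm38 annotation matched by symbol, promoter windows from RefSeq.

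Values in every library are given for 18 of the 31 members. These were the members called with the highest and lowest log2 fold change in WT cells (4 of each at 24 h, 3 of each at 6 h), with the highest and lowest interaction (4 of each at 24 h, 3 of each at 6 h), and with the highest and lowest difference between untreated lines (3 of each). Alternatives were DESeq2 1.42.0, other scalings and filters, the compared groups alone, a fold of 2, a replicate block, each library left out, and for levels the longest transcript. By a chi-square of the counts over the 18 pairs of libraries within a group, none was a duplicate of another. Pairs from different groups were not compared in this way. No column was left unmatched. A member and some list genes enter the counts but are not reported here by name.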

Additional observations from a re-analysis of the deposited data

Results flagged for a closer look

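For the following E2 genes the CFZ effect in one line was unlike that in the other, by the interaction term of the edgeR fit at an adjusted p under 0.05. All values are log2 fold changes in Nrf1-KO cells minus those in WT cells.

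At 6 h the fold change was lower in Nrf1-KO cells for Ube2o (-1.26), Ube2l3 (-0.52), Ube2k (-0.51), Ube2m (-0.43), Ube2v1 (-0.36), Ube2r2 (-0.28), Ube2f (-0.28), Ube2z (-0.19) and Ube2n (-0.15). It was higher in Nrf1-KO cells for Ube2w (0.46), Ube2h (0.40), Ube2e3 (0.23), Ube2b (0.22) and Ube2d1 (0.21).

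At 24 h it was lower in Nrf1-KO cells for Ube2o (-1.20), Ube2f (-0.64), Ube2m (-0.61), Ube2k (-0.61), Ube2l3 (-0.60), Ube2v2 (-0.24), Ube2v1 (-0.24) and Ube2z (-0.10), and among those higher were Ube2d1 (0.76), Ube2e3 (0.65), Ube2w (0.63), Ube2h (0.52), Ube2b (0.49), Ube2l6 (0.48), Ube2cbp (0.43), Ube2g2 (0.33) and Ube2g1 (0.16). Calls were lost in at least 1 of the 18 leave-outs for Ube2b, Ube2d1, Ube2e3 and Ube2n at 6 h and for genes including Ube2cbp, Ube2g1, Ube2v2 and Ube2z at 24 h. The 6 h call of Ube2d1 was lost in 11 of the 18 leave-outs (adjusted p up to 0.233), and also with DESeq2 and an unfiltered table. Groups of 3 are too small for a test of single libraries that stand apart, and the agreement of replicates is given with the depth.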

How the results depend on the processing

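The direction of a called change held under every alternative tried for Ube2o, Ube2f, Ube2j2 and Ube2g2 in both lines at 24 h. Requiring a fold of 2 left 1 E2 gene in WT cells at 6 h (1 higher, 0 lower), 2 at 24 h (2 higher, 0 lower), 0 between 6 h and 24 h in either line, and 0 in Nrf1-KO cells at 6 h and at 24 h. It left 1 in the interaction at each time (0 higher, 1 lower), 0 between the untreated lines, 1 between the lines at 6 h of CFZ (0 higher, 1 lower) and 2 at 24 h (0 higher, 2 lower). For the comparisons between times and between lines, the share of all genes with a fold of 2 is not given. Whether those counts are unusual cannot be read from them. Library size alone raised the number called lower to 10 in WT cells at 6 h and to 14 in Nrf1-KO cells at 24 h, and lowered the median of all genes. Under either other scaling the number called lower in both lines at 6 h was 8, as against 3. With a replicate block the numbers called were 22 in WT cells at 6 h, 28 at 24 h and 27 in Nrf1-KO cells at 24 h, where Ube2m was called lower (-0.091). The replicate numbers mark no shared batch in the labels. Over 45 pairs of same-numbered libraries the deviations from the group means had a mean correlation of 0.014 and a highest of 0.097, so the numbers were not treated as pairs.

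Leaving out each library in turn gave these numbers of E2 genes called: 15 to 18 higher and 4 to 7 lower in WT cells at 6 h, 17 to 19 higher and 7 to 9 lower in WT cells at 24 h, 9 to 12 higher and 9 to 12 lower in WT cells between 6 h and 24 h, 11 to 13 higher and 9 to 12 lower in Nrf1-KO cells at 6 h, 17 to 18 higher and 6 to 12 lower in Nrf1-KO cells at 24 h, 14 to 18 higher and 8 to 9 lower in Nrf1-KO cells between 6 h and 24 h, 3 to 6 higher and 8 to 11 lower in the 6 h interaction, 7 to 11 higher and 6 to 8 lower in the 24 h interaction, 4 to 7 higher and 7 to 11 lower in Nrf1-KO against WT cells in DMSO, 6 to 9 higher and 11 to 15 lower in those lines at 6 h and 10 to 12 higher and 11 to 12 lower in those lines at 24 h. The number higher in the 6 h interaction was 3 without WT DMSO replicate 1, WT CFZ 6 h replicate 1, WT CFZ 6 h replicate 3, Nrf1-KO DMSO replicate 2 or Nrf1-KO CFZ 6 h replicate 2, as against 5 with all libraries. The number lower in untreated Nrf1-KO cells was 7 without WT DMSO replicate 1, as against 11. Over all comparisons 243 calls of members were made, of which 193 were kept in every leave-out and 50 were lost in at least 1. No called value changed sign in a leave-out, and the lost calls had log2 values of at most 0.43 in size.

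Among the genes given in full, the signs that changed under another setting were those of values that had not been called. Of the turned values, Ube2h in WT cells at 6 h and Ube2j1 in Nrf1-KO cells at 24 h, both with library size alone, and Ube2j1 in WT cells at 24 h with upper-quartile scaling were themselves called. Ube2cbp in WT cells at 24 h turned from 0.13 to -0.0083 with upper-quartile scaling. Ube2d1 in Nrf1-KO cells at 6 h turned from 0.042 to -0.071 with library size alone, -0.0070 with an unfiltered table and -0.032 with upper-quartile scaling. Ube2g2 in the 6 h interaction turned from -0.026 to 0.0086 with upper-quartile scaling. Ube2h in WT cells at 6 h turned from 0.020 to -0.0033 with DESeq2, -0.11 with library size alone, -0.0078 with an unfiltered table and -0.089 with upper-quartile scaling. Ube2j1 in WT cells at 24 h turned from 0.045 to -0.060 with library size alone, -0.011 with an unfiltered table and -0.092 with upper-quartile scaling. Ube2j1 in Nrf1-KO cells at 24 h turned from 0.080 to -0.10 with library size alone and -0.029 with upper-quartile scaling. Ube2j1 in the 24 h interaction turned from 0.034 to -0.044 with library size alone. Ube2j2 in Nrf1-KO against WT cells in DMSO turned from -0.037 to 0.011 with library size alone. Ube2k in Nrf1-KO cells at 6 h turned from 0.055 to -0.057 with library size alone and -0.019 with upper-quartile scaling. Ube2q2 in the 24 h interaction turned from -0.013 to 0.015 with upper-quartile scaling. With 1 library left out, the ranges that took in both signs were those of Ube2cbp in the 6 h interaction (-0.011 to 0.18), Ube2h in WT cells at 6 h (-0.017 to 0.075), Ube2j1 in WT cells at 24 h (-0.0015 to 0.063), Ube2j2 in the 24 h interaction (-0.19 to 0.019), Ube2j2 in Nrf1-KO against WT cells in DMSO (-0.16 to 0.045) and Ube2q2 in the 24 h interaction (-0.058 to 0.057). The cause of these changes was not tested. Among the other members, called values of Ube2r2 in WT cells at 6 h, Ube2e1 in WT cells at 24 h, Ube2d2a in both lines at 24 h and Ube2z in Nrf1-KO cells at 24 h turned below 0 under another scaling and were no longer called. Over the genes given in full, 2990 alternative values kept sign and call, 78 lost a call, 53 gained one and 29 changed sign. With the longest transcript in place of the merged exons, 161 of 186 shares of the summed level moved by more than 1 SD.

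With 3 libraries a group, a common coefficient of variation of 3.13% between replicates and 1562 counts for the lowest member, small changes could be called for the abundant genes, and the intervals were widest for Ube2cbp and Ube2t. Reads shared with other genes limit Ube2v1, Ube2l3, Ube2h and Ube2e1 most, and some other members less. Of the Ube2g2 exonic bases, 10.3% overlap another annotated gene on the same strand, and 8.23% of the Ube2q2 read-length stretches occur in Gm4895. The genome build, annotation and use of strand are not given in the sources used here. Each line is a single cell line.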
